A study of Mus musculus with 10 samples.

Results

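The peaks described here are the entries on the mitochondrial genome in the ATAC-seq peak lists of 10 mouse libraries. ATAC-seq uses the Tn5 transposase to insert sequencing adapters into accessible DNA. Every entry on the mitochondrial sequence was kept, and a peak with several summits counted once for each summit. This gave 221 entries of 243487 in all lists. The nuclei came from the ventral tegmental area, a midbrain region that holds dopamine neurons, of adult mice older than postnatal day 60. All mice, the standard-reared ones included, had the genotype ArcCreERT2 x Sun1/+. In these mice a tamoxifen-dependent recombinase is driven by Arc, a gene induced by neuronal activity, and turns on a tagged nuclear envelope protein. Nuclei that carried the tag were bound to magnetic beads and are called activated, and the other nuclei are called non-activated. The 4 groups were activated nuclei of mice exposed to early-life stress (3 libraries), activated nuclei of standard-reared mice (2 libraries), non-activated nuclei of stressed mice (3 libraries) and non-activated nuclei of standard-reared mice (2 libraries). Each library was from 1 animal, and 4 of the 6 animals gave a library of each class. The markers of the tissue and of neurons were not checked, because no gene annotation of the files' build (mm39) was used here.

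Mitochondrial DNA is a small circular molecule present in many copies per cell. It encodes subunits of respiratory chain complexes I, III and IV and of the ATP synthase (complex V), together with the ribosomal and transfer RNAs needed to translate them. It carries no histones and is packed by the protein TFAM, and its noncoding control region holds the promoters and the origin of heavy-strand replication. Because no nucleosomes cover it, Tn5 cuts it readily, and mitochondrial reads are a common carry-over in ATAC-seq of isolated nuclei. In peak lists of this kind, a mitochondrial peak is therefore scored against an already high mitochondrial background. Fewer nuclei, fewer mitochondria and fewer mitochondrial DNA copies cannot be told apart in these bulk libraries.

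Mitochondrial peaks were called in every library. The stressed activated libraries had 35, 21 and 26 entries, the standard-reared activated libraries 25 and 21, the stressed non-activated libraries 22, 16 and 17, and the standard-reared non-activated libraries 15 and 23. The ranges of the classes overlapped, at 21 to 35 in activated and 15 to 23 in non-activated libraries. These entries made up 0.0356 to 0.207% of the entries of a list. Peaks covered 11093, 8080 and 11461 mitochondrial bases in stressed activated libraries and 10803 and 5748 bases in standard-reared activated ones. They covered 9099, 8614 and 9435 bases in stressed non-activated libraries and 8078 and 10187 bases in standard-reared non-activated ones. Coverage was thus 35.3 to 70.3% of the sequence in activated and 49.6 to 62.5% in non-activated libraries. The longest single peak was 5208 bases, in stressed activated replicate 3, and the shortest of the longest peaks per library was 1133 bases, in standard-reared activated replicate 2. The plot of summits by library shows that the peaks fell in the same 3 parts of the sequence everywhere.

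**Figure D1:**
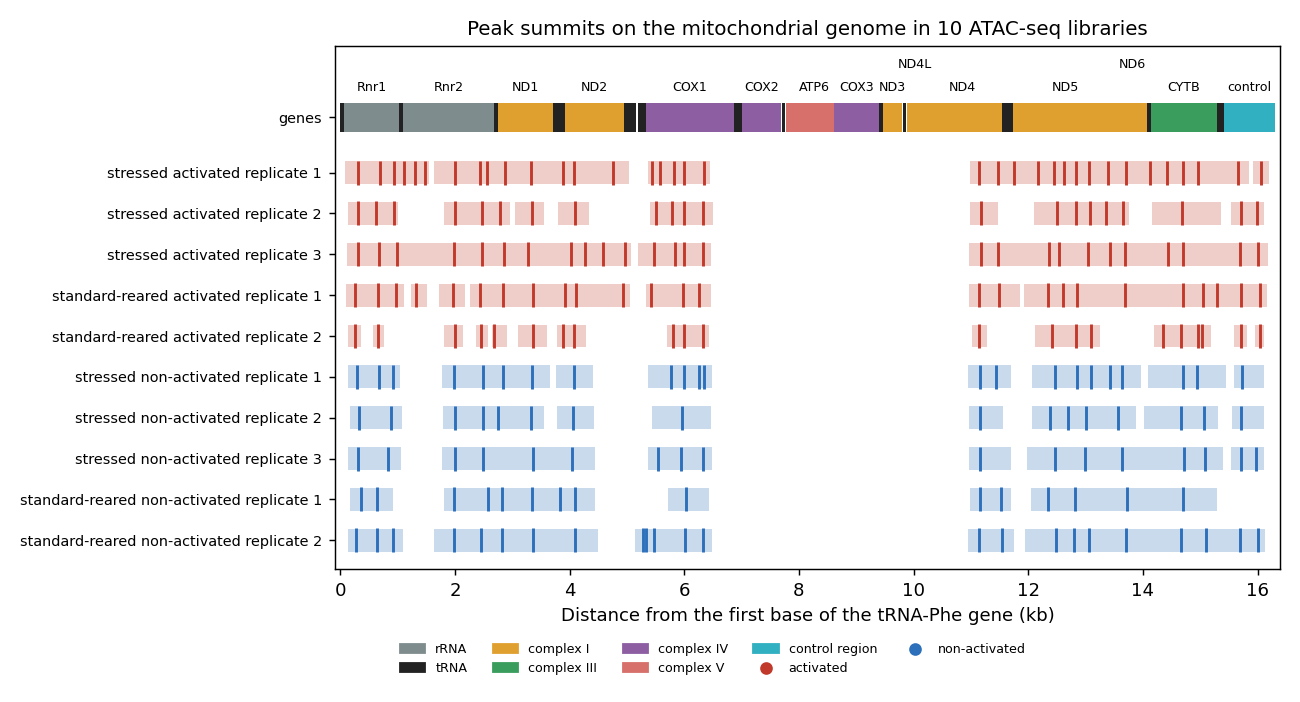
Summits (ticks) and peak intervals (pale bars) of each library along the mitochondrial genome, in kb from the first base of the tRNA-Phe gene, with activated libraries in red above non-activated ones in blue and the genes above them. Each library has summits in both rRNA genes, ND1, ND2, COX1, ND4, ND5 and CYTB, and no library has one between COX1 and ND4.

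Merging the peaks of all libraries gave 3 mitochondrial regions, at mm39 mitochondrial positions 87 to 5077, 5140 to 6494 and 10953 to 16196. All 3 held a peak in all 10 libraries. None of the 3 was therefore present in every library of 1 group and absent from the other. The same pattern was counted over the 25440 merged regions with a peak in at least 2 of the 10 libraries. These lay on the assembled chromosomes and the mitochondrial genome. For activated against non-activated libraries it was met by 0.244% in stressed mice, by 11.1% in standard-reared mice and by 0.0275% in all mice. It was met by 4.18% for stressed against standard-reared mice in activated nuclei and by 0.389% in non-activated nuclei. With 3 regions, a count of 0 carries little weight against any of these shares. The merged regions were also 4991, 1355 and 5244 bases long. A difference between groups at a single summit position cannot show in this count.

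The 2 ribosomal RNA genes held 51 summits, or 23.1% of the 221, and take up 15.6% of the sequence. Of these, 29 were in activated and 22 in non-activated libraries, where all 221 entries split into 128 and 93. The splits given below are to be read against that one. Shares of the sequence, here and below, are of its whole length, including a gap of 27.4% where no library had a peak. Genes in that gap count in the shares of complexes I, IV and V and of the tRNA genes. A summit share above or below a sequence share is therefore not a measure of enrichment. Mt-Rnr1, which encodes the RNA of the small ribosomal subunit, held 26 summits, and mt-Rnr2, which encodes that of the large subunit, held 25. Summits were chained into 1 position where neighbours lay within 50 bases. In mt-Rnr1 a summit at 263 to 353 was found in all 10 libraries, and others at 621 to 696 and at 839 to 984 in 8 each. In mt-Rnr2 a summit at 1965 to 2009 was found in all 10 libraries and one at 2437 to 2497 in 9.

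Genes of complex I, the NADH dehydrogenase, held 92 summits (41.6%) and take up 38.9% of the sequence. Of these, 52 were in activated and 40 in non-activated libraries. Summits lay in 5 of its 7 genes, with 35 in ND5, 17 in ND1, 16 in ND4, 15 in ND2 and 9 in ND6. ND3 and ND4L held none. Positions found in all 10 libraries were 3270 to 3369 in ND1, 4029 to 4117 in ND2, 11134 to 11172 in ND4 and 12338 to 12543 in ND5. The ND5 position was the widest of these, at 205 bases, and held 11 summits because 1 library had a pair there. Positions in part of the libraries were 2745 to 2872 across the TrnL1 and ND1 genes (8 libraries), 11442 to 11542 in ND4 (6), 12790 to 12849 and 12993 to 13094 in ND5 (7 and 8) and 13637 to 13728 in ND6 (8).

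CYTB, the only mitochondrial gene of complex III (cytochrome b), held 21 summits (9.50%) on 7.02% of the sequence, 12 in activated and 9 in non-activated libraries. Its summit at 14657 to 14712 was found in all 10 libraries, and a second at 15025 to 15104 in 5. Complex IV, cytochrome c oxidase, had 32 summits (14.5%) on 18.5% of the sequence, 19 in activated and 13 in non-activated libraries. All 32 lay in COX1, the catalytic subunit, and none in COX2 or COX3. The COX1 summit at 5947 to 6025 was found in all 10 libraries, the one at 6320 to 6342 in 7, at 5419 to 5575 in 6 and at 5775 to 5832 in 5. The complex V genes ATP6 and ATP8 held no summit and take up 5.17% of the sequence.

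Transfer RNA genes held 9 summits (4.07%) on 9.14% of the sequence, 6 in activated and 3 in non-activated libraries. They lay in 7 of 22 genes, with 2 each in TrnL1 (leucine) and TrnM (methionine) and 1 each in TrnQ, TrnW, TrnY, TrnE and TrnT. Fold over the local background at these summits ran from 1.35 in TrnY to 2.22 in TrnM. No summit lay in the short stretches between genes, which are 0.350% of the sequence.

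The control region held 16 summits (7.24%) on 5.38% of the whole sequence, the gap without peaks included. Every activated library had 2. The stressed non-activated libraries had 1, 1 and 2, and the standard-reared non-activated libraries 0 and 2. The summit at 15655 to 15732 was found in 9 libraries, with fold 1.94 to 3.07 and pileup 110 to 258 fragments. The other, at 15976 to 16062, was found in all 5 activated and in 2 non-activated libraries, with fold 1.58 to 2.17. Among its 2 non-activated summits, one had a −log10 q of 4.58 and the other 11.2, against 6.23 to 15.4 in the activated libraries. Stressed non-activated replicates 1 and 2 lacked this second summit. Their peaks at the first summit ran to 16114 and 16119, so a peak covered the second position there too. The last peak of standard-reared non-activated replicate 1 ended at 15285, before the control region. As a share of each library's mitochondrial summits, the control region averaged 8.09 ± 1.57% in activated and 6.25 ± 4.43% in non-activated libraries (SD, n = 5 each), and the two-sided exact permutation test gave p = 0.421 (adjusted p = 1).

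Across the sequence, summits formed 46 positions. Of these, 22 were found in at least 5 libraries and held 183 of the 221 entries (82.8%), and 8 were found in all 10. Another 15 were found in 1 library only, 11 of them activated and 4 non-activated, where activated libraries had 128 entries in all and non-activated ones 93. Stressed activated replicate 1, the library with 35 entries, held 6 of the 11, and the other activated libraries held 5. The 8 shared positions spanned 38 to 205 bases over the libraries.

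The CYTB summit had the highest −log10 q of its library's mitochondrial entries in 9 of 10 lists. The authors' caller gave it a fold of 2.10, 3.01 and 2.06 in stressed activated libraries and 2.28 and 3.50 in standard-reared activated ones. It had 2.61, 2.78 and 2.57 in stressed non-activated libraries and 2.52 and 2.44 in standard-reared non-activated ones. The lowest and the highest of the 10 values were thus both in activated libraries. Its −log10 q was 17.7, 38.5 and 22.7 in stressed activated libraries and 26.5 and 27.5 in standard-reared activated ones. It was 36.0, 34.8 and 35.3 in stressed non-activated and 18.4 and 36.5 in standard-reared non-activated libraries. In standard-reared non-activated replicate 1 the leading entry was instead at 12810 in ND5, with a fold of 2.60, a −log10 q of 20.2 and a pileup of 157.

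Fold and p together fix the pileup, the number of fragments over the summit, and the expected background, and both were solved for every entry. The pileup at the CYTB summit was 217, 220 and 284 in stressed activated libraries, 251 and 127 in standard-reared activated, 250, 227 and 278 in stressed non-activated, and 152 and 296 in standard-reared non-activated libraries. Standard-reared activated replicate 2 was the lowest, and the classes overlapped. To compare positions, each pileup was divided by its library's mean over the 8 shared positions. CYTB stood at 1.10 ± 0.07 in activated and 1.11 ± 0.03 in non-activated libraries (SD, n = 5 each), and was the highest of the 8 in 8 libraries. Mt-Rnr2 stood at 1.09 ± 0.06 in activated and 1.07 ± 0.03 in non-activated libraries. The mt-Rnr1 position was the lowest of the 8 in all 10 libraries, at 0.854 ± 0.099 in activated and 0.857 ± 0.020 in non-activated libraries. The relative pileups of the other 5 positions, in ND1, ND2, COX1, ND4 and ND5, averaged 0.929 to 1.05 in activated and 0.937 to 1.06 in non-activated libraries. At each of the 8 positions the means of the classes differed by less than the SD of the activated libraries. No test was run on these ratios, since the 8 positions were selected for having a summit in every library.

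**Figure D2:**
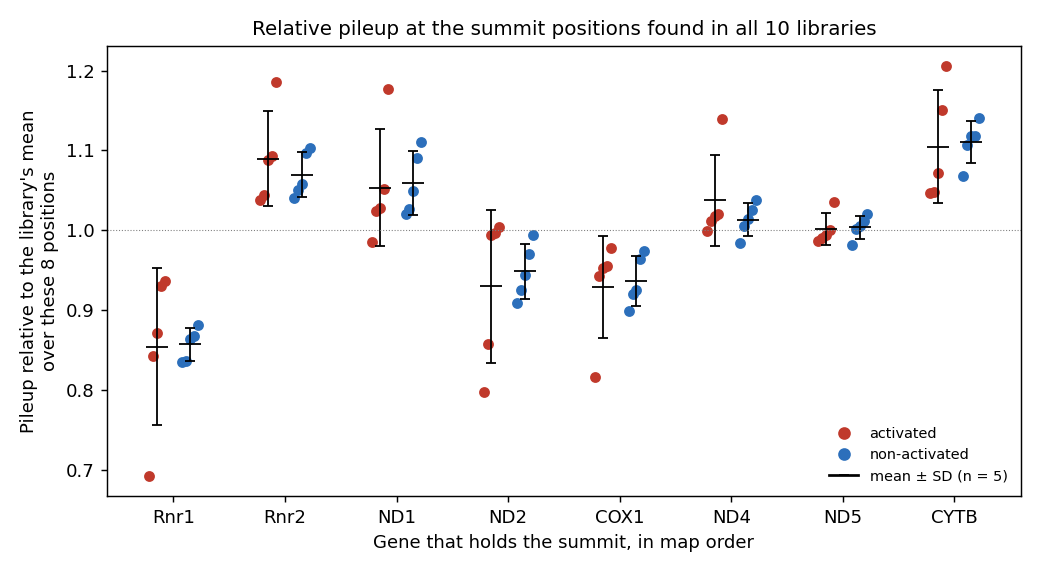
Pileup at the 8 summit positions found in all 10 libraries, divided by the library's mean over them, with activated libraries (red) left of non-activated ones (blue) and bars for mean ± SD (n = 5). The mt-Rnr1 position is the lowest in every library, and the CYTB position averages 1.10 in activated and 1.11 in non-activated libraries.

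The spread over these positions differed more among activated libraries. The highest pileup of the 8 was 1.119, 1.366 and 1.127 times the lowest in stressed activated libraries and 1.25 and 1.74 times in standard-reared activated ones. It was 1.28, 1.32 and 1.27 times in stressed non-activated and 1.33 and 1.34 times in standard-reared non-activated libraries. If only 1 read per position and strand were kept, a pileup could not exceed 2 fragment lengths. The highest pileups were 81.0, 68.3 and 88.2% of that limit in stressed activated libraries, 84.8 and 41.8% in standard-reared activated, 83.3, 45.4 and 57.7% in stressed non-activated, and 33.6 and 70.5% in standard-reared non-activated libraries. The sources used here do not give how duplicate reads were handled, and its part in the pileups was not tested.

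Against the other peaks of the same list, mitochondrial peaks were tall and weakly enriched. Their median pileup was 85 to 262 fragments in activated and 131 to 246 in non-activated libraries, against 7 to 17 for all other peaks. Within its own list, every mitochondrial entry lay at or above percentile 99.76 of pileup. Their median fold was 1.76 to 2.43 in activated and 1.95 to 2.26 in non-activated libraries, against 4.17 to 6.90 for all other peaks. No mitochondrial entry stood above percentile 5.04 of fold in its list. The median mitochondrial −log10 q lay between percentiles 58.7 and 96.8 of its list. The plot of both medians shows this opposite order in each of the 10 libraries. The lists hold only sites that passed the caller's significance limit, and at a low background this takes a higher fold. Mitochondrial backgrounds ran from 29.5 to 161 fragments, against 0.0744 to 1.64 for the lowest background of a list. The opposite order therefore depends in part on this limit, and the size of that part was not tested. The fold of a mitochondrial peak is set against a window of 10 kb, clipped at the ends. This window covered 32.1 to 61.4% of the mitochondrial sequence over the 221 summits and 40.4 to 40.8% at the CYTB position. The solved backgrounds are read tags divided by the full 10 kb, also where the window is clipped. Bases beyond an end and bases without reads thus lower the background and raise fold and −log10 q. This holds at the mt-Rnr1, CYTB and control region positions, among others. Folds at different positions are therefore not comparable as local enrichment, and the size of this part was not tested.

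**Figure D3:**
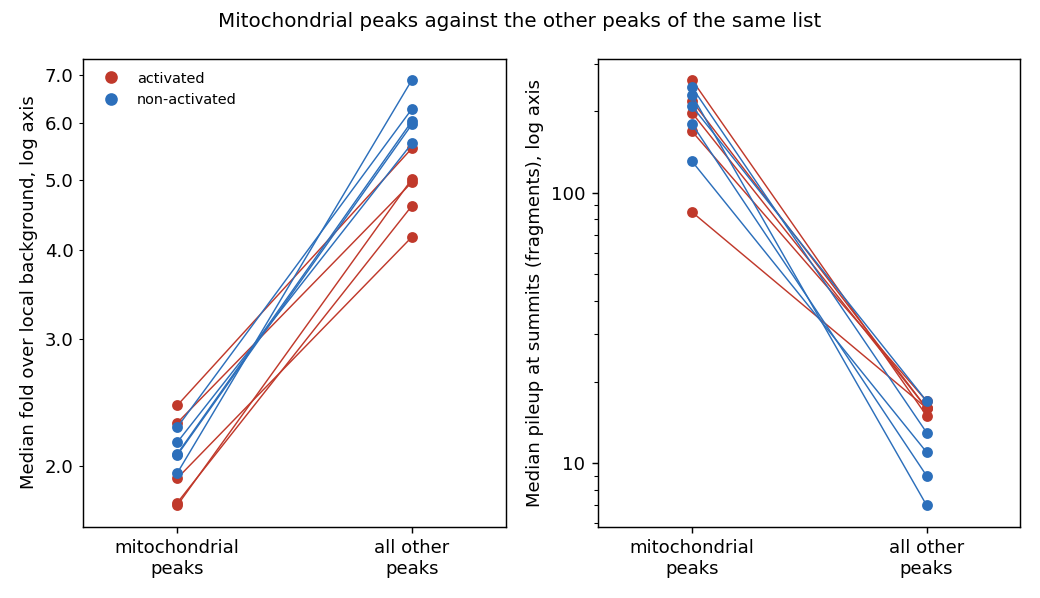
Median fold over local background (left) and median pileup at summits (right), log axes, for mitochondrial peaks and for all other peaks of the same list, with 1 line per library (activated red, non-activated blue). Mitochondrial peaks have the lower fold, at 1.76 to 2.43 against 4.17 to 6.90, and the higher pileup in all 10 libraries.

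No peak of any library lay between positions 6494 and 10953, a gap of 4458 bases or 27.4% of the sequence. The last summit before it was at 6342 in COX1 and the first after it at 11134 in ND4. The gap holds 11 whole genes. Of these, 6 encode proteins, namely COX2 and COX3 of complex IV, ATP6 and ATP8 of complex V, and ND3 and ND4L of complex I. The other 5 are the tRNA genes TrnS1, TrnD, TrnK, TrnG and TrnR.

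The background windows showed how many reads lay there. Each solved mitochondrial background was, within 0.0287 of a tag, a whole number of read tags in a 10 kb window. Near either end of the sequence the window is clipped, so successive summits give the cumulative tag number. From position 7010 to 9029, a stretch of 2020 bases, every one of the 10 libraries had 0 tags. A count of 0 does not make the expected number 0, which by counting error could be up to 3 tags per library. From there to a window edge between 9657 and 9712, the 10 libraries had 0.00159 to 0.166 tags per base. From that edge to one between 10655 and 10732, the 9 libraries with such an edge had 0.0256 to 0.307 tags per base. The density was 0.369 to 1.47 tags per base from the first base to a window edge between 5263 and 5353, and 0.428 to 1.51 from the last edge to the end of the sequence in those 9 libraries. The empty and sparse stretches lie inside the gap without peaks, and accessibility cannot be read from a stretch without reads. In the RefSeq gene table (GRCm38.p6), chromosome 1 carries neighbouring pseudogenes of which Gm10925 bears the synonym mt-Atp6 and, at 681 bases, has the length of ATP6, and Gm10222 has that of ND4L (297 bases). The sources used here do not give how reads that match both places were treated, and the part of such copies in the empty stretch was not tested.

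**Figure D4:**
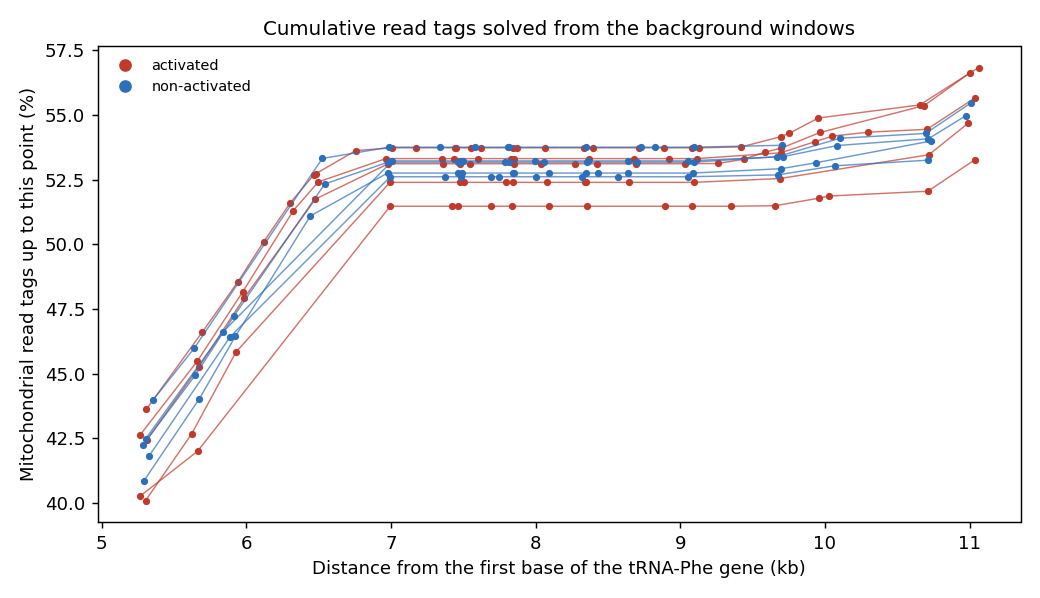
Read tags up to a given distance from the first base of the tRNA-Phe gene (kb), as a percentage of each library's mitochondrial tags, with 1 point per usable background window (activated red, non-activated blue). All 10 lines are flat across a stretch of 2020 bases and rise again beyond it.

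The whole mitochondrial sequence carried 16753, 9470 and 18427 tags in stressed activated libraries and 15635 and 4820 in standard-reared activated ones. It carried 13494, 6850 and 9576 tags in stressed non-activated and 5495 and 12332 in standard-reared non-activated libraries. Per kb this was 296 to 1131 tags in activated and 337 to 828 in non-activated libraries, so the classes overlapped. The genome-wide rate, from the lowest background of each list, did not follow the same order. It was 10.1, 6.86 and 6.16 tags per kb in stressed activated, 10.9 and 5.30 in standard-reared activated, 6.52, 0.737 and 0.309 in stressed non-activated, and 1.451 and 1.133 in standard-reared non-activated libraries. The kb here are those of the caller's genome size, a setting that the sources used here do not give. Apart from stressed non-activated replicate 1, each non-activated library lay below every activated one.

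The first question of the design is how activated and non-activated nuclei differ. Relative to the genome-wide rate, the fullest mitochondrial background window stood at 90.0, 72.3 and 162 times in stressed activated libraries and 77.7 and 47.4 times in standard-reared activated ones. It stood at 109, 489 and 1651 times in stressed non-activated and 204 and 579 times in standard-reared non-activated libraries. The classes overlapped only in that stressed activated replicate 3, at 162, lay above stressed non-activated replicate 1, at 109. On the log2 scale the means were 6.37 ± 0.64 in activated and 8.65 ± 1.501 in non-activated libraries (SD, n = 5 each), a ratio of 0.206. The two-sided exact permutation test gave p = 0.0159, and the Benjamini-Hochberg adjustment over the 36 tests gave 0.286, so the difference did not pass. The ratio was below 1 in 4 of 4 animals with both classes, at 0.824, 0.148 and 0.0984 in stressed replicates 1, 2 and 3 and 0.233 in the standard-reared animal. The permutation over libraries ignores this pairing of libraries by animal. A within-animal sign-flip test, an exact permutation with a smallest possible p of 0.125, gave that p.

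The highest mitochondrial pileup over the genome-wide rate showed the same order, at 160, 199 and 286 in stressed activated, 156 and 158 in standard-reared activated, 256, 1232 and 3736 in stressed non-activated, and 463 and 1244 in standard-reared non-activated libraries. The log2 means were 7.54 ± 0.38 in activated and 9.85 ± 1.49 in non-activated libraries, a ratio of 0.201 (exact permutation p = 0.0159, adjusted p = 0.286). This permutation also ignores the pairing by animal. Within animals the ratio was 0.626, 0.162 and 0.0766 in stressed replicates 1, 2 and 3 and 0.340 in the standard-reared animal. Both measures share the genome-wide rate as denominator and are not independent. The libraries with the largest values were those with the lowest genome-wide rate and with fragment lengths of 210 to 250 bases, all non-activated. The 5 activated libraries and stressed non-activated replicate 1 had fragment lengths of 134 to 161 bases. Among these 6, the 5 activated libraries averaged 0.40 below that 1 non-activated library in log2 background over rate, against a log2 difference of −2.28 over all 10. With 1 library on one side this is a value and not a test, and an exact permutation could not go below p = 0.167. Activation cannot be told apart from fragment length and genome-wide depth, since the 4 libraries with long fragments and a low genome-wide rate were all non-activated.

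**Figure D5:**
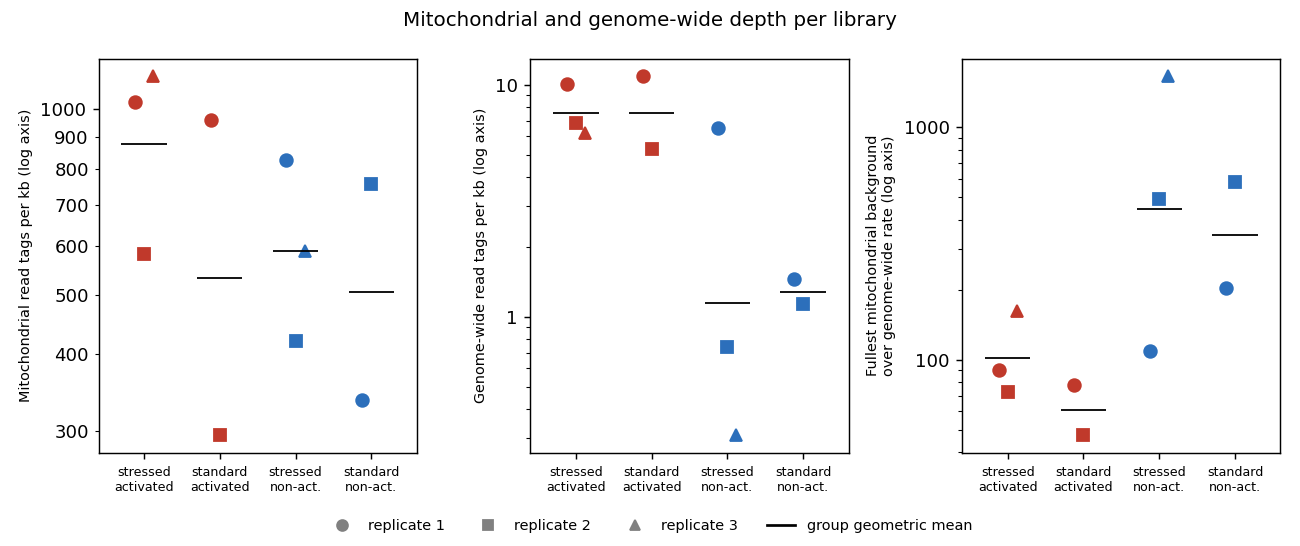
Mitochondrial read tags per kb, genome-wide read tags per kb and the fullest mitochondrial background over the genome-wide rate, on log axes, for each library by group, with marker shape for the replicate number and a line at the geometric mean. The mitochondrial tags overlap between activated and non-activated groups, while 4 of 5 non-activated libraries lie at 1.45 genome-wide tags per kb or below.

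The number of entries averaged 4.71 ± 0.29 in activated and 4.27 ± 0.26 in non-activated libraries on the log2(number + 1) scale, a ratio of 1.35 between them (exact permutation p = 0.0476, two-sided, adjusted p = 0.571). It was higher in activated nuclei in 4 of 4 animals, with ratios of 1.29 to 1.57 in the 3 stressed animals and 1.38 in the standard-reared one. The permutation over libraries ignores this pairing, and the within-animal sign-flip test gave p = 0.125, the smallest it allows. Among short-fragment libraries only (5 activated, 1 non-activated), the log2 difference was 0.19, against 0.44 over all libraries. Stressed replicate 1, with short fragments in both libraries, had the ratio of 1.57. Activation cannot be told apart from fragment length for this measure either. The unadjusted exact permutation p did not stay under 0.05 when peaks with several summits were counted once (p = 0.865), nor without any 1 of 6 of the libraries (p = 0.0794 or 0.0873). These 6 were activated stressed replicates 1 and 3, activated standard-reared replicate 1, non-activated stressed replicates 2 and 3 and non-activated standard-reared replicate 1. Covered bases had a ratio of 1.01 (exact permutation p = 0.968), and the highest fold one of 0.974 (exact permutation p = 0.833).

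Within stressed mice alone (3 against 3, smallest possible p = 0.1), the ratio of activated to non-activated nuclei was 1.45 for entries, 0.229 for background over rate and 0.198 for pileup over rate, each with an exact permutation p of 0.2. Within standard-reared mice (2 against 2, smallest possible p = 0.333) the same ratios were 1.22, 0.177 and 0.207, with exact permutation p of 0.667, 0.333 and 0.333. Neither design can reach a p of 0.05. In stressed mice, the ratio for background over rate was 0.113 without non-activated replicate 1 and 0.441 without non-activated replicate 3, and that for pileup over rate was 0.0974 and 0.372 without the same libraries. In standard-reared mice, these ratios were 0.105 and 0.126 without non-activated replicate 1, and 0.298 and 0.339 without non-activated replicate 2.

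The second question is whether early-life stress goes with a difference. In activated nuclei, the ratio of stressed to standard-reared mice was 1.16 for entries, 1.28 for covered bases, 1.68 for background over rate, 1.33 for pileup over rate and 0.833 for the highest fold. The exact permutation p ran from 0.2 to 0.5. In non-activated nuclei the ratios were 0.978, 0.997, 1.30, 1.39 and 1.05, with p from 0.4 to 1 in exact permutation tests. By animal (3 against 3, mean over an animal's libraries), they were 1.02, 1.05, 1.30, 1.25 and 0.976, with exact permutation p from 0.7 to 0.9. All 3 stressed animals had both classes, but only 1 standard-reared animal did. The spread among standard-reared animals therefore also holds the difference between activated and non-activated nuclei. The control region share differed by −1.12 percentage points in activated nuclei, by 3.17 in non-activated nuclei and by 0.429 by animal, with exact permutation p of 0.5, 0.6 and 0.8. The smallest p these designs allow is 0.1, and no adjusted p was below 1. Whether the activated and non-activated difference itself depended on rearing was not tested.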

How the data were processed

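The authors deposited 1 peak list per library, so no samples were pooled for calling. The submitters' processing notes name the build mm39, MACS2 2.2.9.1, Bowtie2 2.4.5, fastp 0.23.4, SAMtools 1.13 and R 4.4.2. The sources used here do not give settings, read shift, genome size or the handling of duplicate and multiply mapping reads, and each could change these peaks. In the deposited lists, fold is a linear ratio of pileup to local background at a summit. Deposited significance is the −log10 of p-values and q-values. The deposited score equals the −log10 q multiplied by 10 and cut to an integer in 243466 of 243487 entries. These are the authors' values and describe peaks within 1 list. Deposited starts, ends and summits were converted to 1-based positions.

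Pileup and background were solved from fold (pseudocount 1) and p for each entry, with a relative misfit of at most 1.04e-05, and were tested on simulated data. Each list's genome-wide rate is its lowest background, and its fragment length is the width of its narrowest peak. Tag numbers assume a 10 kb window centred on the summit. Genes were placed with the RefSeq table of GRCm38.p6, whose mitochondrial genes were used with the files' positions, and the control region as the stretch after the last gene. Totals of reads are not known, so depth is given as tags per kb.

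Group and replicate came from the labels. Library names pair the same animals by number in stressed mice. Only 1 standard-reared animal gave both classes (replicate 2 of the activated and replicate 1 of the non-activated libraries). The 6 measures were each compared in 6 ways by two-sided exact permutation over libraries, with Benjamini-Hochberg adjustment over 36 tests. Positions in at least 5 libraries, the leading entry of each library and all gene classes were named. Members, lists and tests were chosen with earlier results of these data known. Alternatives included a stricter limit (−log10 q of 5 or more), repeated intervals counted once, other backgrounds, chaining distances and overlaps, a within-animal block and each library left out. Computation used SciPy 1.17.1, NumPy 2.4.6, statsmodels 0.14.6, pandas 2.3.3 and, for plots, Matplotlib 3.10.9 under Python 3.11.15. Sequences were not used here.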

Additional observations from a re-analysis of the deposited data

How the results depend on the processing

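Values are activated minus non-activated or stressed minus standard-reared on the log2 scale, except the control region share, in percentage points. Calls use an unadjusted p of 0.05, and no call passed adjustment. For entries in all mice the difference of 0.44 was 0.40 at a −log10 q of at least 5, and 0.079 with repeated intervals counted once, each no longer past 0.05. The within-animal block (smallest possible p 0.125) gave 0.52 for entries, −2.12 for background over rate and −2.14 for pileup over rate. Short-fragment libraries only (chosen after seeing the data, 5 against 1, smallest possible p 0.167) gave 0.19, −0.40 and −0.46. Neither design can pass 0.05, so a lost call there says nothing of stability. With repeated intervals counted once, entries reversed to −0.41 for activation in stressed mice, and for rearing to −0.77 in activated nuclei, 0.46 in non-activated nuclei and −0.085 by animal. At a −log10 q of at least 5, reversals were 0.10 for entries by rearing in non-activated nuclei, −0.017 for covered bases by activation and −0.80 for the share by rearing per animal. The block put covered bases at −0.0042. The cause was not tested. Counting 1 per library and gene gave 20 rRNA, 49 complex I, 10 complex III, 10 complex IV and 9 control region summits, and the q limit left 5 in tRNA genes. The other 97 alternative values that left out no library kept direction and side of the threshold, or moved little.

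Leaving out 1 library in turn, activation in all mice ranged from 0.32 to 0.51 for entries, −2.75 to −1.77 for background over rate, −2.78 to −1.81 for pileup over rate (in stressed mice −3.14 to −1.18 and −3.36 to −1.43), −0.068 to 0.18 for covered bases and −0.15 to 0.037 for highest fold. In standard-reared mice it ranged from −0.0050 to 0.58 for entries, −0.66 to 0.25 for covered bases and −0.15 to 0.48 for fold, and in stressed mice from −1.36 to 2.25 for the share. Rearing in activated nuclei ranged from −0.098 to 0.81 for covered bases and −0.57 to 0.048 for fold. Rearing in non-activated nuclei ranged from −0.32 to 0.26 for entries, −0.17 to 0.16 for covered bases, −0.57 to 1.39 for background, −0.44 to 1.499 for pileup and −1.18 to 7.52 for the share. For rearing by animal the ranges were −0.085 to 0.13, −0.0095 to 0.20, −0.18 to 1.29, −0.30 to 1.19 and −1.16 to 2.02 in the same order, and −0.12 to 0.036 for fold. Low genome-wide depth in 4 of 5 non-activated lists limits every ratio to the genome-wide rate.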
